A study of Mus musculus with 12 samples.

Results

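Ccr4, Ccr6, Ccr8, Ccr10 and Cxcr6 are receptors linked to the entry of T cells into skin, and Ccl22 encodes a ligand of CCR4. These 6 genes were taken by probe name from the 547 endogenous genes of the NanoString mouse Immunology code set, in which color-coded probes count RNA molecules without amplification, and were followed across all 12 samples. Of these, 6 were cells isolated from the skin of Ii-TGO mice injected with Th2 cells: 3 mice at flare and 3 mice at their first lesions. The remaining 6 were cultures of DO11 T cells, whose transgenic receptor recognises a peptide of ovalbumin (OVA): 3 Th2, 2 Th1 and 1 unskewed Th0 culture. Th2 cells had been skewed with IL-4, anti-IFN-γ and anti-IL-12p40, Th1 cells with IFN-γ and anti-IL-4, and all had received IL-2 and had been re-activated with OVA-pulsed splenocytes, without renewed skewing, before harvest. Donors and recipients were on the BALB/c background. The recipients had been sublethally irradiated and, while fed Dox chow, expressed an OVA fusion protein under a transactivator driven by the invariant chain promoter. Flare samples were taken after Dox chow had been reintroduced to healed mice. Recipients with and without TLR9 were used in the study, and the genotype behind each skin sample is not given in the sources used here. No skin sample came from a mouse injected with Th1 cells. The labels and the NanoString methods state an enrichment of the skin cells for CD3 before RNA extraction. The study's results text and its methods for isolating skin cells state one with KJ1-26, an antibody to the DO11 receptor. The sources used here do not settle which was done.

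Chemokine receptors are G protein-coupled receptors that guide leukocytes along gradients of chemokines, and the set of receptors on an activated T cell bears on the tissues it enters. CCR4 binds CCL17 and CCL22, CCR10 binds CCL27 from keratinocytes and CCL28, CCR8 binds CCL1 and, in the mouse, CCL8, CCR6 binds CCL20, and CXCR6 binds CXCL16. CCR4 and CCR8 are best known from Th2 and regulatory T cells, CCR6 from Th17 cells, CCR10 from skin-homing T cells and CXCR6 from tissue-resident and effector T cells, while CCL22 is made by dendritic cells, macrophages and activated lymphocytes.

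Ccr4 (chr9:114490316-114505476), Ccr8 (chr9:120092133-120094906) and Cxcr6 (chr9:123806477-123811754) lie on mouse chromosome 9 in the GRCm38.p6 annotation, Ccr6 on chromosome 17, Ccr10 on chromosome 11 and Ccl22 on chromosome 8. The 250 bases upstream of an annotated start are shown for the 3 genes that passed the test between Th2 and Th1 cells, from RefSeq for GRCm38.p6 on the strand of the gene, since these are windows in which a site of a Th1 or Th2 regulator might be looked for. Cxcr6 is shown at chr9:123806227-123806476 (plus strand), Ccl22 at chr8:94745434-94745683 (plus strand) and Ccr6 at chr17:8242276-8242525 (plus strand), the second of its annotated starts.
Cxcr6: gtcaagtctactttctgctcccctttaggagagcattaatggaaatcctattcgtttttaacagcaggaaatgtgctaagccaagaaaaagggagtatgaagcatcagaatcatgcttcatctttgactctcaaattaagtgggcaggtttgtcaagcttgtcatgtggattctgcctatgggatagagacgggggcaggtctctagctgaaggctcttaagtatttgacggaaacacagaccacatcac
Ccl22: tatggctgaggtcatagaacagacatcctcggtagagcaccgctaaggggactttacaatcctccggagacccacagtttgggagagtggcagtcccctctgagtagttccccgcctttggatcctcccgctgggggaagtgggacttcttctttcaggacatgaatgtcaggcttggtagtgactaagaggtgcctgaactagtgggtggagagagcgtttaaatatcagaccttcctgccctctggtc
Ccr6: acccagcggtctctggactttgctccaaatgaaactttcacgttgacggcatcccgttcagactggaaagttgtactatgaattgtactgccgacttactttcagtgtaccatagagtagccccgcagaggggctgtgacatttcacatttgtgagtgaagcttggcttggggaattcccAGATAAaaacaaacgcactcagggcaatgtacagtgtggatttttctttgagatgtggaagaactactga
The capitals in the Ccr6 window mark AGATAA, the letters searched for GATA factors, at -70 from the start. A STAT site (TTC and GAA parted by any 4 bases) and TCACACC for T-box factors were searched as well, all on both strands and without overlap between the motifs. They were chosen with the test results in view. None of the 3 motifs was found in the windows of Cxcr6, Ccl22, Ccr4 or the first start of Ccr6, and the window of Ccr8 held AGATAA on the minus strand at -239. Of 32851 promoter windows of this length, 9.99% held AGATAA, 5.85% the STAT site and 3.33% the T-box letters, so a match is a description of these letters and no more.

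Most values of these genes lay above background in the cultures, except those of Ccr10, and few did in the skin samples. The detection limit of a sample was the mean of its 8 negative controls plus 2 SDs, and scaled counts are raw counts divided by a factor from 7 housekeeping genes. Of the 36 values of these genes in the 6 skin samples 4 lay above the limit, against 29 of 36 in the 6 cultures. The skin samples held between 25925 and 131229 endogenous counts and had a scaled limit of 35.7 to 242, against 417917 to 481131 counts and a scaled limit of 3.87 to 8.41 in the cultures. A skin value below 35.7 scaled counts was therefore not detectable, and 3 of the members (Cxcr6, Ccr4 and Ccl22) had a Th2 mean above that level. Cd3e, a chain of the T cell receptor complex, lay at or below the limit in all 6 skin samples, and so did Cd5, Cd6, Cd27, Cd28 and Lck, 6 of the 11 T cell markers in the panel. Cd2 was above it in 5 of the 6. The T cell markers summed to 649 to 950 scaled counts at flare and 281 to 1234 in first lesions, against 9786 to 12250 in Th2 cultures. Between 1 and 4 of the 11 were above the limit in a flare sample and between 0 and 3 in a first lesion sample. The skin sums thus include background for most of the markers. In these bulk samples a smaller share of T cells and lower levels of these genes in each T cell cannot be told apart.

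**Figure D1:**
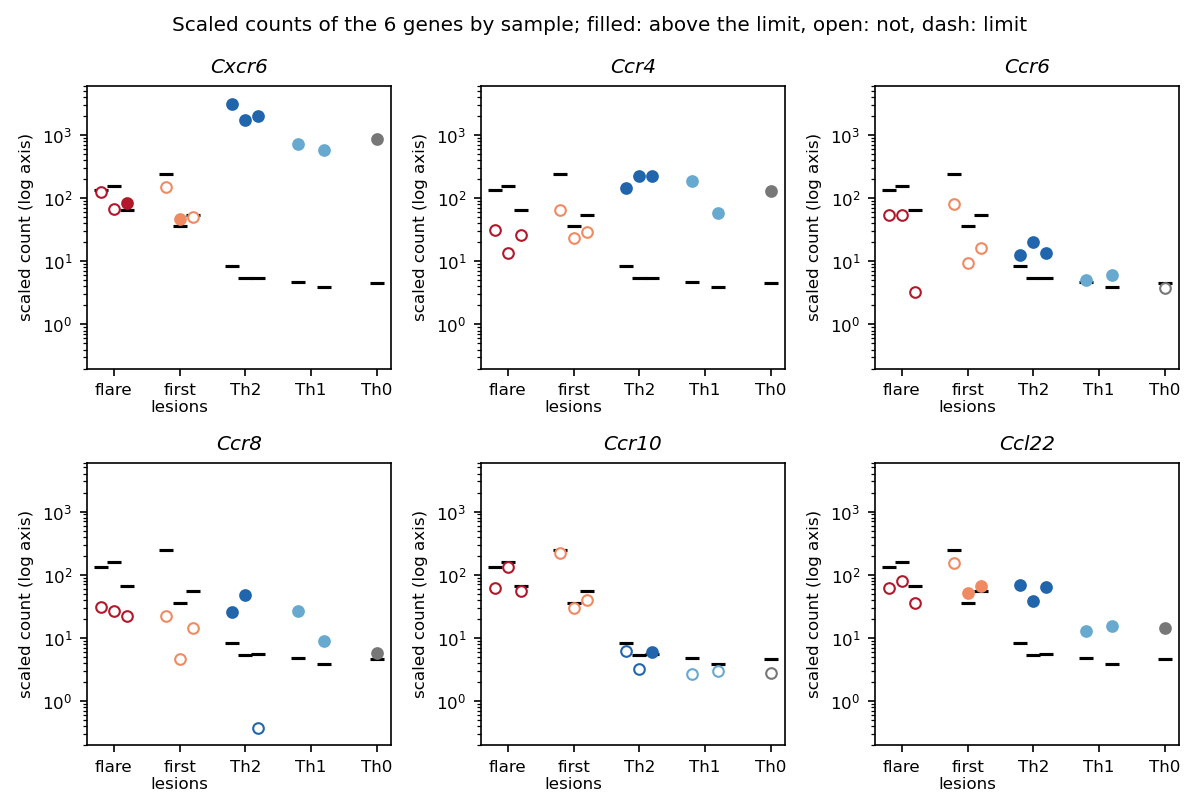
Scaled counts of the 6 genes in each of the 12 samples (log axis), by group. Filled points lie above the sample's detection limit (black dash) and open points at or below it: 4 of 36 skin values are filled, 2 for Cxcr6 and 2 for Ccl22, against 29 of 36 culture values.

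**Figure D2:**
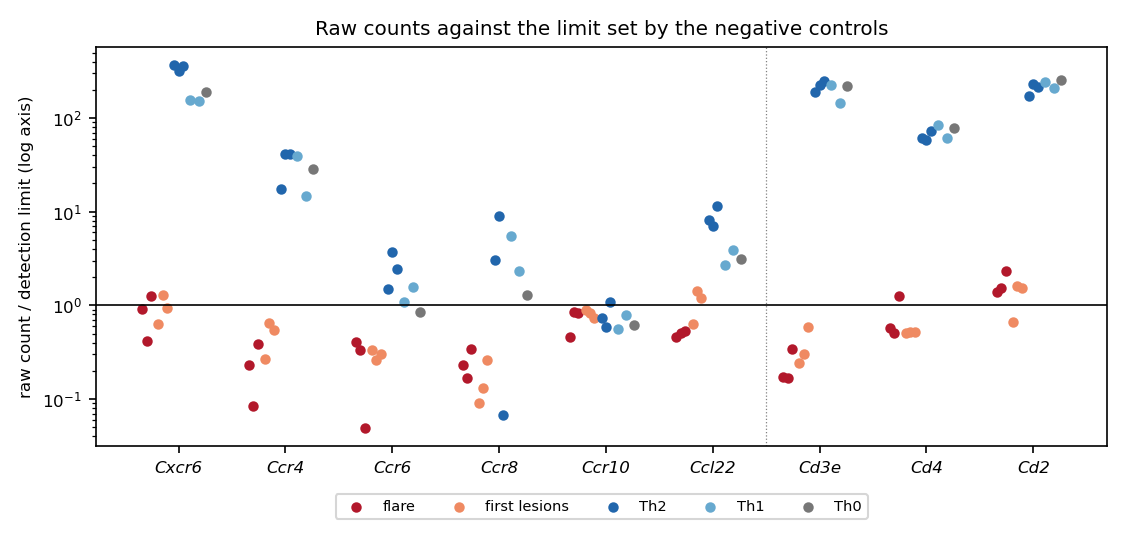
Raw count of each gene divided by the sample's detection limit (log axis) in flare, first lesion, Th2, Th1 and Th0 samples, with Cd3e, Cd4 and Cd2 for comparison at the right. Points under the line at 1 were at or below the limit; in skin these included all values of Ccr4, Ccr6, Ccr8, Ccr10 and Cd3e.

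Th2 cells were compared with Th1 cells to ask which of these trafficking genes the skewing had set apart before injection. Cxcr6, Ccr6 and Ccl22 were higher in Th2 cells, while Ccr4 and Ccr8 did not pass and Ccr10 was too low to test. The quasi-likelihood test of edgeR, with an adjusted p under 0.05 as the threshold, called 109 of 400 genes (27.2%) higher and 18 (4.5%) lower in Th2 cells. Against that background 3 of 5 members tested were called higher and none lower. The median log2 fold change over all 400 genes was 0.58 with the housekeeping scaling and lay between -0.24 and 0.54 under the 5 other scalings, and the members' changes are best read against that median.

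Cxcr6 gave 3084, 1733 and 1979 scaled counts in the Th2 cultures of experiment 1, of experiment 2 (male cells) and of experiment 2 (female cells). The Th1 cultures of experiments 1 and 2 gave 735 and 583, and the Th0 culture 867. All 3 Th2 cultures lay above every other culture, and the Th0 culture was above both Th1 cultures. For Th2 over Th1 cells edgeR estimated a log2 fold change of 1.78 ± 0.41 (standard error), with an adjusted p of 0.0130. Within experiment 1 the log2 ratio was 2.07 and within experiment 2 it was 1.67. Of 17 alternative settings with an adjusted p Cxcr6 passed in 16, and it was lost when total endogenous counts served as the scaling (0.89, adjusted p = 0.0501, within 0.000107 to 0.0501 over the settings). It also did not pass by the methods' t-test without adjustment, whereas Ccl22 and Ccr6 did. The count of Cxcr6 per count of Cd2, a T cell adhesion receptor, needs no scaling, and was 2.14, 1.39 and 1.66 in the Th2 cultures, against 0.640 and 0.725 in the Th1 cultures and 0.753 in the Th0 culture.

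Ccl22 gave 67.9, 37.8 and 63.0 scaled counts in the Th2 cultures, against 12.6 and 15.1 in the Th1 cultures and 14.2 in the Th0 culture. The lowest Th2 culture, the male one of experiment 2, was still above the highest of the others. Its log2 fold change was 2.01 ± 0.43 (standard error; adjusted p = 0.00975 by edgeR), with log2 ratios of 2.42 and 1.74 within experiments 1 and 2. Ccl22 passed in 13 of 17 settings, and not with TMM factors (1.34, adjusted p = 0.0528), DESeq2 size factors (1.32, adjusted p = 0.0515), total counts (1.08, adjusted p = 0.0865) or the Cd3 chain genes as the scaling (1.18, adjusted p = 0.0848), within 0.000714 to 0.0865 over the settings. Markers of other cells were higher in the same cultures. Of 8 dendritic cell markers tested 5 passed as higher and none as lower (median log2 fold change 1.73), and of 8 B cell markers 6 were higher and none lower (median 1.63). The dendritic markers summed to 1377 to 4043 scaled counts in Th2 cultures, 428 and 1102 in Th1 cultures and 2100.5 in the Th0 culture, and the part of these cells in the Ccl22 value was not tested. Over the 6 cultures the gene whose log2 values followed Ccl22 most closely was Tyrobp, a signaling adaptor of myeloid and natural killer cells (Pearson r = 0.98, a description across 6 libraries that share their cells' makeup).

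Ccr6 was low in all cultures. It gave 12.7, 20.0 and 13.4 scaled counts in the Th2 cultures, 5.10 and 6.06 in the Th1 cultures, and 3.81, which was below the limit, in the Th0 culture. The Th2 values were 1.5 to 3.7 times the limit of their samples. The estimate was 1.46 ± 0.43 on the log2 scale (standard error; adjusted p = 0.0306 by edgeR), and the log2 ratios were 1.31 and 1.47 within experiments 1 and 2. Ccr6 passed in 6 of 16 settings, over which its log2 fold change ran from 0.58 to 1.59 and the adjusted p from 0.0223 to 0.331. It did not pass without either Th1 culture (1.34 and 1.59), without the male (1.22) or the female Th2 culture of experiment 2 (1.55), with DESeq2's Wald test (1.46), with all 12 samples in 1 fit (1.45), or under TMM, DESeq2, total count or Cd3 scaling.

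Ccr4 gave 146, 225 and 227 scaled counts in the Th2 cultures, against 187 and 57.4 in the Th1 cultures and 128 in the Th0 culture. The Th1 culture of experiment 1 lay above the Th2 culture of the same experiment, so the groups overlapped. On the log2 scale the change was 0.71 ± 0.47 (standard error; adjusted p = 0.272 by edgeR), close to the median of all genes. Within experiment 1 the log2 ratio was -0.35 and within experiment 2 it was 1.98. Without the Th1 culture of experiment 1 it was 1.80 and passed (adjusted p = 0.0130, within 0.0130 to 0.981 over 17 settings), and with total counts as the scaling it was -0.012.

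Ccr8 turned on single cultures. It gave 25.7, 48.3 and 0.37 scaled counts in the Th2 cultures, from raw counts of 67, 152 and 1, against 26.2 and 8.91 in the Th1 cultures and 5.84 in the Th0 culture. The culture of female cells was below its limit of 14.8 raw counts, whereas the culture of male cells from the same experiment held the highest value of any sample. Measured with each culture at no less than its limit, Ccr8 was at least 8.74-fold higher in the male than in the female culture, the largest such difference among the 411 genes above the limit in either of the pair. S100a8, a calprotectin subunit, came second (6.13-fold lower in the male culture), and Ccl22, Ccr6, Cxcr6, Ccr10 and Ccr4 stood at ranks 30, 55, 229, 267 and 394. In the female culture Ccl8, Foxp3 and Ccl20, also at or below the limit, gave 8, 10 and 11 raw counts, more than the 1 count of Ccr8. Why Ccr8 lay under these was not tested. With 1 culture of each sex no test was possible, and sex and culture cannot be told apart. Between Th2 and Th1 cells the log2 fold change of Ccr8 was 0.51 ± 1.03 (standard error; adjusted p = 0.697 by edgeR). It was 1.48 without the female culture and -0.42 without the male one.

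Ccr10 was above the limit in 1 of the 6 cultures, the Th2 culture of female cells, at 5.96 scaled counts against a limit of 5.53. The other Th2 cultures gave 6.14 and 3.18, the Th1 cultures 2.66 and 3.03 and the Th0 culture 2.79. With a Th2 mean of 5.09 below the mean limit of the group (6.45), no fold is given.

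The ordering of the groups differed between the genes. For Cxcr6, Th2 stood above Th0 and Th0 above Th1 with no overlap between neighbours. For Ccl22 and Ccr4 the Th2 cultures stood above the single Th0 culture, which fell within the range of the Th1 cultures. Of the other chemokine receptors of the panel 11 were tested. In Th2 cells 3 were higher (Ccr9, Ccr2 and Ccr3), 1 was lower (Cxcr3) and 7 did not pass, and the median over the 11 was 0.70 on the log2 scale. Ccr2, an inflammatory monocyte and T cell receptor, changed by 2.29 ± 0.48 on the log2 scale (standard error; adjusted p = 0.00928 by edgeR). Cxcr3, the receptor of interferon-induced chemokines, changed by -1.89 ± 0.37 (adjusted p = 0.00690 by edgeR). Ccr9, a gut-homing receptor, and Ccr3, the eotaxin receptor, were not above the limit in either Th1 culture. With TMM factors as the scaling 1 of the 11 receptors was higher and 3 were lower, and with total counts none was higher and 5 were lower. Among the adhesion and residency genes tested, Vcam1 was higher in Th2 cells and Itgb1, the beta1 integrin chain, was lower (-2.39). Vcam1 was above the limit in 2 Th2 cultures and in neither Th1 culture. With TMM, DESeq2, total count or Cd3 scaling no gene of this list was higher.

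**Figure D3:**
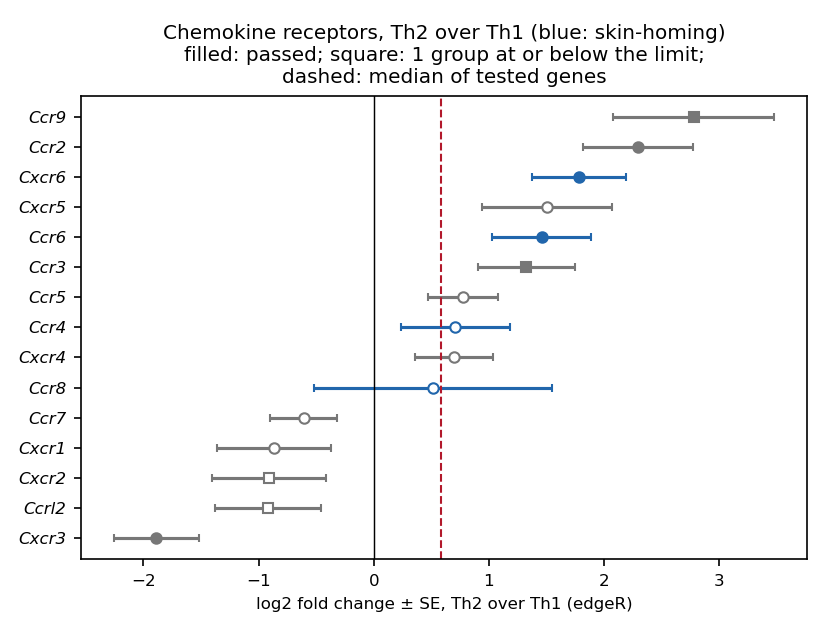
Change in Th2 over Th1 cells on the log2 scale with standard error (edgeR) for the 15 chemokine receptors tested, skin-homing receptors in blue. Filled symbols passed an adjusted p of 0.05, squares had 1 group wholly at or below the limit so that their fitted value is no measured fold, and the dashed line is the median of the 400 tested genes (0.58); Cxcr6 (1.78) and Ccr6 (1.46) lie right of it, Ccr4 (0.71) and Ccr8 (0.51) beside it.

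**Figure D4:**
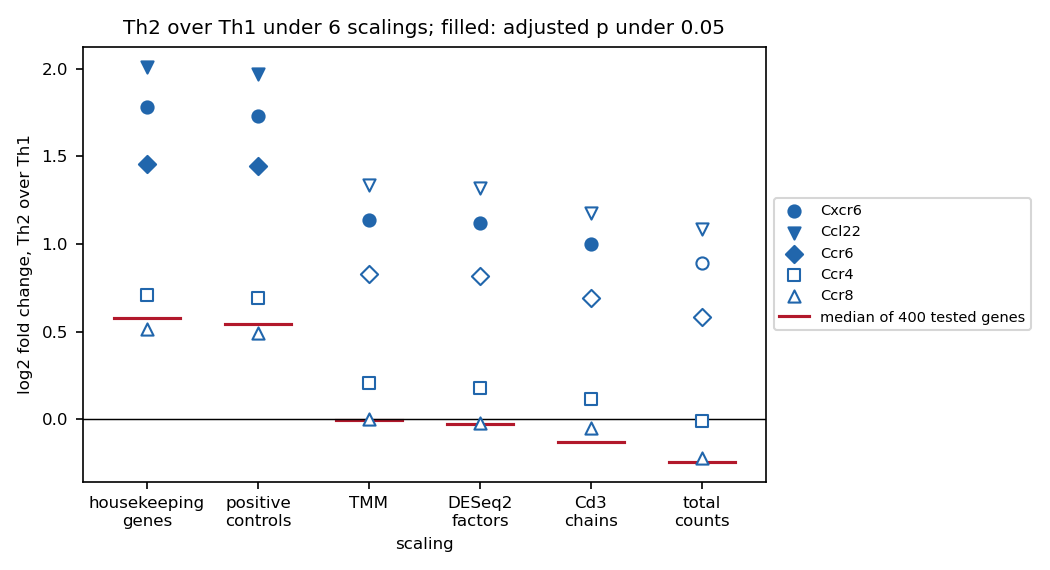
Change of 5 genes in Th2 over Th1 cells on the log2 scale under 6 scalings, with the median of the 400 tested genes as a red line. Filled symbols passed an adjusted p of 0.05; Cxcr6 is filled in 5 of the 6, Ccl22 and Ccr6 in 2, and Ccr4 and Ccr8, never filled, run along the median.

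Cells from lesional skin were compared with Th2 cultures to ask how the bulk levels of these genes differed after injection. With 6 of 11 T cell markers at or below the limit in every skin sample, bulk levels need not be those of injected cells. Cxcr6 and Ccr4 were lower in skin at both stages, Ccr4 with every skin value at or below the limit. Ccl22 overlapped with the cultures in first lesions, and Ccr6, Ccr8, Ccr10 and, at flare, Ccl22 were too low in skin to tell. Of 403 genes tested at flare, 208 (51.6%) were higher and 87 (21.6%) lower than in Th2 cultures. Of 397 genes tested in first lesions, 147 (37%) were higher and 88 (22.2%) lower. At each stage 2 of 4 members tested were lower and none was higher. All 4 met the filter for testing through the 3 Th2 cultures alone, so these counts do not weigh lower against higher calls. Ccr6 and, at flare, Ccl22 are among the 4 although too low in skin to tell. Both comparisons share the same 3 Th2 cultures.

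Cxcr6 gave 123, 66.9 and 83.6 scaled counts in the flare samples and 152, 46.3 and 50.7 in the first lesions, against 3084, 1733 and 1979 in the Th2 cultures. Raw counts in skin were between 10 and 43, and only flare mouse 12 (26 counts) and first lesion mouse 3 (30 counts) were above the limit. Every skin sample was below every culture of any kind. On the log2 scale Cxcr6 changed by -4.65 ± 0.38 at flare (standard error; adjusted p = 3.49e-06 by edgeR) and by -4.91 ± 0.60 in first lesions (standard error; adjusted p = 0.000122 by edgeR). With each skin sample set to no less than its own limit, a step added after the data had been seen, Cxcr6 was at least 18.02-fold lower at flare and at least 19.8-fold lower in first lesions. In the order of log2 fold changes from the lowest, Cxcr6 stood at rank 10 of 403 genes at flare and at rank 13 of 397 in first lesions. T cell markers fell in the same samples. At flare all 11 of those tested were lower (median log2 fold change -2.86), and in first lesions 9 of 11 were lower (median -3.15). Of these 11, 6 were at or below the limit in every skin sample, so the medians include fitted values that are no measured fold. Cd3e had fitted values of -5.86 at flare and -5.59 in first lesions. Cd2, measured in 5 of the 6 skin samples, was at -2.75 at flare and -3.78 in first lesions. Where both genes were above the limit, the count of Cxcr6 per count of Cd2 was 0.542 at flare (mouse 12) and 0.811 in first lesions (mouse 3), below the range of the Th2 cultures (1.39 to 2.14) and close to that of the Th1 and Th0 cultures. These are 2 skin samples with counts of 26 and 30 for Cxcr6 and 48 and 37 for Cd2, and no test was made. The Cxcr6 counts were only 1.27 and 1.30 times the limit. Background is thus a larger part of these ratios than of those in the cultures, and they give no level per T cell.

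Ccr4 gave 30.9, 13.4 and 25.7 scaled counts at flare and 65.3, 23.2 and 29.5 in first lesions, against 146, 225 and 227 in the Th2 cultures, and no skin value was above the limit. Measured against the mean limit, it was at least 1.66-fold lower at flare and at least 1.80-fold lower in first lesions. The adjusted p of edgeR (6.90e-05 and 0.00236) belongs to fitted log2 values of -3.08 and -2.50. Those rest on skin counts at or below the limit and do not test the bounds. The limit of first lesion mouse 1 (242 scaled counts) was above every Th2 value, and that of flare mouse 2 (159) above the lowest. A level like that of the Th2 cultures could have gone undetected there. Ccr4 and Cxcr6 passed in all 16 alternative settings run for each of these comparisons, which reuse the same skin counts.

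**Figure D5:**
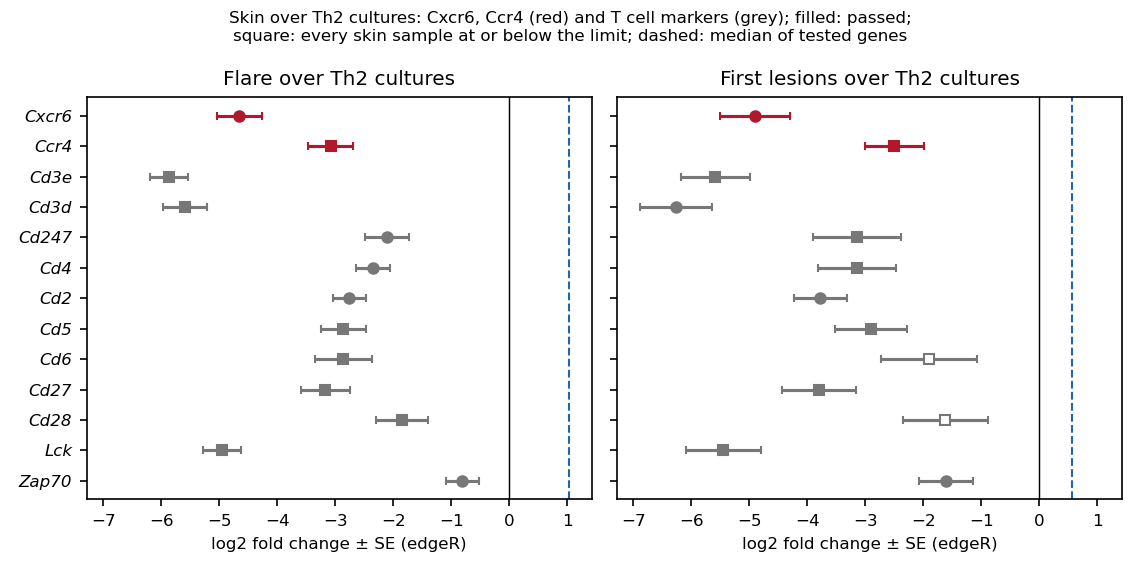
Log2 fold change with standard error (edgeR) of Cxcr6 and Ccr4 (red) and of 11 T cell markers (grey), at flare (left) and in first lesions (right) over Th2 cultures. Filled symbols passed an adjusted p of 0.05, squares were at or below the limit in every skin sample so that their fitted value is no measured fold, and the dashed line is the median of all tested genes (1.03 at flare, 0.57 in first lesions).

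Ccl22 gave 61.7, 80.3 and 35.4 scaled counts at flare, all at or below the limit, and 152, 51.0 and 66.0 in first lesions, of which the last 2 were above it. The Th2 cultures gave 67.9, 37.8 and 63.0. The groups overlapped, and in first lesions over Th2 cultures the change was 0.59 ± 0.54 on the log2 scale (standard error; adjusted p = 0.372 by edgeR). It was -0.80 with TMM factors (adjusted p = 0.0380) and -0.84 with DESeq2 size factors (adjusted p = 0.0320), within 0.0320 to 0.901 over 16 settings, so its direction differed with the scaling. No fold is given at flare, where the mean limit (120 scaled counts) was above the Th2 mean of 56.2. The skin samples also held cells other than T cells: 8 myeloid markers summed to 2779 to 3004 scaled counts at flare and 618 to 1687 in first lesions, against 24.5 to 33.7 in Th2 cultures. The dendritic markers summed to 8477 to 13916 at flare and 3517 to 21898 in first lesions, against 1377 to 4043 in Th2 cultures. Their part in the Ccl22 value was not tested.

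Ccr6, Ccr8 and Ccr10 were at or below the limit in every skin sample. Their scaled counts ran from 3.22 to 54.0, from 22.5 to 30.9 and from 54.7 to 134 at flare, and from 9.27 to 79.8, from 4.63 to 21.8 and from 29.4 to 218 in first lesions. The mean limits of 120 and 111 scaled counts at flare and in first lesions were above the Th2 means of Ccr6 (15.4), Ccr8 (24.8) and Ccr10 (5.09), so levels like those of the Th2 cultures would not have been detectable in skin.

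Of the ligands of these receptors other than Ccl22, the panel held Ccl8 and Ccl20. Ccl8, a ligand of CCR8 in the mouse, gave 7209, 8497 and 14590 scaled counts at flare and 18334, 4440 and 7031 in first lesions, and lay at or below the limit in all 6 cultures. Measured against the limit of the Th2 cultures it was at least 1565-fold higher at flare and at least 1539-fold higher in first lesions. The adjusted p of edgeR (5.41e-07 and 2.43e-05) belongs to the fitted values and does not test these bounds. Ccl20, the ligand of CCR6, was at or below the limit in all 12 samples. Other chemokine genes were higher in skin as well, 13 of 14 tested at each stage, and their median log2 change was 5.02 at flare and 4.62 in first lesions, beside 1.03 and 0.57 over all genes tested. These medians include genes at or below the limit in every Th2 culture, such as Cxcl12 and Ccl6, whose fitted values are no measured fold. Of the other receptors, Cmklr1, the chemerin receptor of myeloid and natural killer cells, was higher in skin (fitted values of 6.63 at flare and 5.36 in first lesions), and Ccr2 was lower (-2.49 and -2.36). Cmklr1 was above the limit in 1 Th2 culture, 3 flare samples and 2 first lesion samples, so its fitted values rest in part on background.

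Flare was compared with first lesions to ask whether these genes changed on recurrence. Skin scores were 1, 0.5 and 2 at flare (mice 1, 2 and 12) and 1, 3 and 3 in first lesions (mice 1, 3 and 6). Flare mouse 12 came from experiment 2 and all other skin samples from experiment 1. Stage is therefore mixed with score and in part with experiment. No member was above the limit in enough of the 6 samples to be tested, and 0 of 277 genes tested passed (0%). At an unadjusted p under 0.05 edgeR's quasi-likelihood test gave 30 genes and limma 28, of which none passed adjustment, while DESeq2 gave 50, of which 10 passed. Cxcr6 averaged 91.3 ± 29.1 scaled counts at flare and 83.1 ± 60.0 in first lesions (SD, n = 3 each), and Ccl22 averaged 59.1 ± 22.6 at flare and 89.8 ± 54.8 in first lesions (SD, n = 3 each), with ranges that overlapped for both. The highest first lesion value of both genes was that of mouse 1, whose sample held 27347 endogenous counts and had the highest limit of any sample (242 scaled counts). A mouse number 1 of experiment 1 appears at both stages, and the labels do not say whether it is the same animal.

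Across all 12 samples Cxcr6 was most alike in pattern to Il4, the signature Th2 cytokine (Pearson r of log2 scaled counts plus 1 = 0.99), Batf, a transcription factor of effector T cells (0.98), and Tnfrsf8, which encodes CD30 (0.98), among 384 genes above the limit in at least 6 samples. Ccr4 was most alike to Tnfrsf8 (0.95), Batf (0.95) and the granzyme gene Gzmb (0.94). Ccl22 followed other genes, Ifngr2 (0.85), Tlr4 (0.84) and Ube2l3 (0.83), and less closely. The 12 points share the split between skin and cultures, which sets most of these values. Over the 6 cultures alone, an alternative added after the data had been seen, the genes most alike to Cxcr6 were Runx1, Jak1 and Traf3 (0.99, 0.99 and 0.98), and those most alike to Ccr4 were Tnfrsf8, Tnfrsf9 and Stat5a (0.96, 0.96 and 0.95).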

How the data were processed

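The authors deposited raw digital counts per probe for 12 samples (547 endogenous genes, 14 housekeeping genes, 6 positive and 8 negative controls), and no scaling of the deposited counts is stated. The study's methods name Rosalind software and a Student test, whose output was not used here. Scaling used 7 housekeeping genes (geometric mean), those that exceeded the detection limit (mean plus 2 SDs of the negative controls) in every sample. A gene was tested if the number of compared samples in which it exceeded the limit reached the size of the smaller group. The test was edgeR's quasi-likelihood F test (4.0.16, in R 4.3.3), adjusted by Benjamini-Hochberg over all genes tested, with a threshold of 0.05, and a standard error is the log2 fold change divided by the root of F. For a group wholly at or below the limit only a bound is given, from the other group's mean and the mean limit.

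The members and gene lists were chosen with earlier results of these data known, and lists were counted, not tested. One result on the adhesion genes is not reported here. Named list genes were at most the 4 largest changes that passed without overlap, and genes alike in pattern the 3 with the highest Pearson r. Values outside that rule (S100a8, Tyrobp, the motifs) were chosen after the data were seen. Probe accessions of 537 probes, all 6 members included, were found in RefSeq for GRCm38.p6. Ccr10 had no promoter entry. Alternatives were TMM, DESeq2 (1.42.0), total count, Cd3 chain and positive control scaling, 2 other filters, DESeq2's Wald test, limma (3.58.1) with and without background subtraction, all 12 samples in 1 fit, experiment as a block, each sample left out, and the methods' t-test. The experiment number in the labels pairs cultures: same-experiment Th2 and Th1 cultures deviated together (r = 0.12 to 0.18), although with 2 Th1 cultures the r of the other pairs is the same with the sign turned. Separate cultures and mice are labelled, but p-values cover only the spread between these few samples.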

Additional observations from a re-analysis of the deposited data

Results flagged for a closer look

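Ccr4 moved in opposite directions in the 2 experiments. Its log2 ratio of Th2 over Th1 cultures was -0.35 in experiment 1, with 1 culture of each kind, and 1.98 in experiment 2, where both Th2 cultures were above the Th1 culture. The difference between the experiments was not tested.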

How the results depend on the processing

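In Th2 against Th1 cells 3 members passed, and this count was 1 with TMM factors, DESeq2 size factors or the Cd3 chain genes as the scaling and 0 with total counts. The median log2 fold change of all 400 genes was 0.58 with the housekeeping genes and -0.005, -0.03, -0.13 and -0.24 under those 4 scalings, with 109 genes higher and 18 lower as against 34 and 31 (TMM), 32 and 32 (DESeq2 factors), 31 and 39 (Cd3 chains) and 23 and 53 (total counts). Ccr8, which never passed, changed direction with DESeq2 factors (-0.024), total counts (-0.22), the Cd3 chains (-0.048), limma (-0.43) and background subtraction (-0.34), and ran from -0.42 to 1.48 with 1 sample left out. Ccr4 was at -0.012 with total counts. Cxcr6 had an unadjusted p of 0.0586 by the methods' t-test.

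In first lesions against Th2 cells Ccl22 changed direction with TMM factors (-0.80), DESeq2 factors (-0.84) and background subtraction (-0.78). In the skin comparisons the 2 calls for Cxcr6 and Ccr4 were joined by another member under some settings, each time one at or below the limit in skin or, for Ccl22, one whose direction the scaling set. Scaling by the Cd3 chain genes could not be run in skin, where none was above the limit in all samples. With experiment as a replicate block the counts of members called stayed at 3, 2, 2 and 0, and the block changed no call (Cxcr6 in Th2 against Th1 cells 1.84, adjusted p = 0.00850).

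Of the 90 group means recomputed under other scalings 55 moved by more than 1 SD or belonged to the single Th0 culture. Of 66 with a sample left out none did, but that outcome was fixed. In groups of 2 or 3 samples, leaving out 1 cannot move the mean by 1 SD of the group. Depth limits the skin values: the scaled limit there was 35.7 to 242.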
